A study of Mus musculus with 6 samples.

Results

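The lysosomal enzymes and membrane proteins examined here were 36 genes, chosen by name and read from the probes that carry them on a whole mouse genome oligonucleotide array. They were 10 cathepsins, 11 glycosidases, 7 other soluble proteins, 7 membrane proteins and the transcription factor Tfeb. Together they had 46 probes, of 39352 probes for 32398 genes or unnamed transcripts on the array. All 36 passed the filter on dim probes, which kept 23058 genes whose signal stood well above background on 2 or more of the 6 arrays. For 35 of them the signal was well above background on every array, and for Tfeb on 5. A gene is represented by its brightest probe unless another probe is named, and 9 of the 36 had more than 1 probe.

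RNA came from primary mouse osteoblasts (PMOs) isolated from the calvariae of CD1 mice 2 to 5 days old, and each of 3 groups had 2 single-color arrays. The undifferentiated PMOs were grown to confluence in MEM with serum. The differentiated PMOs were then kept for 30 days in differentiation medium, and the cabozantinib group spent the same 30 days in that medium with cabozantinib (XL184), an inhibitor of the receptor tyrosine kinases VEGFR2 and MET. The study asked which genes the drug changes in differentiating osteoblasts. The labels do not say whether the 2 arrays of a group came from separate cultures or animals, so each p-value below measures only the spread between these arrays. By the file headers, the 4 arrays without cabozantinib shared 1 scan date and both cabozantinib arrays had another. Scan date and cabozantinib therefore cannot be told apart, whereas the comparison of differentiated with undifferentiated PMOs lies within 1 scan date.

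Lysosomes are acidic organelles in which hydrolases break down proteins, glycans and lipids delivered by endocytosis and autophagy. The soluble enzymes are made in the endoplasmic reticulum and sorted from the Golgi apparatus, most of them by a mannose 6-phosphate tag, while heavily glycosylated membrane proteins line the organelle and carry lipids and ions across it. TFEB and its relatives of the MiT family bind E-box sequences of the CLEAR type in the promoters of many lysosomal genes and raise their transcription when nutrients are short. Osteoclasts secrete lysosomal enzymes onto bone, and macrophages are rich in lysosomes.

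Because the CLEAR sequence is the known link between Tfeb and its targets, the core E-box and its longer forms were looked up in the promoters of the 36 genes. RefSeq promoter sequences on the build GRCm38.p6, each 250 bases before to 50 bases after a transcript start, were given for 32 genes, with 37 promoters. Only the 250 bases before the start were searched. Asah1, Ctsb, Ctsh and Npc1 had no entry. The core motif CACGTG, which reads the same on both strands, was in a promoter of 11 of the 32 genes, or 34.4%, and in that of 6.86% of all 27025 genes with an entry. Its longer form TCACGTGA was in 5 of the 32, or 15.6%, and in 0.907% of all genes. The 10-base form GTCACGTGAC, which contains both of the others, was in 1, Cln3, or 3.12%, and in 0.27% of all genes. By group, CACGTG was in 4 of 8 cathepsins with an entry (Ctsa, Ctsd, Ctsf and Ctsl), 4 of 11 glycosidases (Gaa, Gla, Glb1 and Naglu), 3 of 6 membrane proteins (Cln3, Lamp1 and Mcoln1), none of the 6 other soluble proteins, and not in Tfeb. A match of letters is a description of the sequence and does not show binding. The 5 windows with the longer form, and that of Lamp1 with the most copies of the core, are given here 5′ to 3′ on the gene's strand, with the motif in capitals. Each is 60 bases long and ends before the transcript start.
Cln3, chr7:126583325-126583384, minus strand: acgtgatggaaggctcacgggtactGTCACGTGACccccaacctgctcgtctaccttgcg
Ctsd, chr7:142387893-142387952, minus strand: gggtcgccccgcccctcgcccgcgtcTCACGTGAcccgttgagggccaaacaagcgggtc
Ctsa, chr2:164833713-164833772, plus strand: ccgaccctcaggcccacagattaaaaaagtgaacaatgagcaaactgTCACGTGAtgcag
Gla, chrX:134601196-134601255, minus strand: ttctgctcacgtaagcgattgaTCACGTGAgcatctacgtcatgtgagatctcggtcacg
Mcoln1, chr8:3500447-3500506, plus strand: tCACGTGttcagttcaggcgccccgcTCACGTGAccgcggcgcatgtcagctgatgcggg
Lamp1, chr8:13159073-13159132, plus strand: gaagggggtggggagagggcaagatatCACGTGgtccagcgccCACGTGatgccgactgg
The window of Lamp1 holds 2 of its 4 copies. Cln3, Ctsd and Gla each had another copy of the core outside the window shown or cut by its edge.

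Signal is given throughout as a level on the log2 scale relative to the array's 75th percentile, so that 0 is the 75th percentile of that array and a step of 1 is a 2-fold change. The 75th percentile itself lay between 624.3 and 1773 intensity units, 58.8% to 72.9% of spots were well above background, and no spot was saturated. Levels can be compared between arrays for 1 probe and not between probes. This scaling left the median of all genes at 0.11 for differentiated against undifferentiated PMOs, -0.29 for cabozantinib against differentiated and -0.35 for cabozantinib against undifferentiated, while quantile normalization left 0.10, -0.08 and -0.12. The members' medians are therefore set beside the median of all genes below. The 3 comparisons share arrays, so their results are not independent of each other.

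In differentiated PMOs, the lysosomal genes were spread in both directions around their undifferentiated level. Among the 36 genes, Ctss and Man2b1 rose and Ppt1 and Scarb2 fell (limma, adjusted p under 0.05 over all probes tested), that is 2 higher beside 5.26% of all genes and 2 lower beside 4.46%. At an unadjusted p under 0.05, 8 were higher (10.5% of all genes) and 4 were lower (9.79%). In all, 19 of the 36 had a log2 difference above 0, against 57.4% of all genes. The arrays of the groups did not overlap for 12 genes that were higher (25.9% of all genes) and 7 that were lower (19.4% of all genes). Without the replicate number in the fit, 6 members were called higher (7.16% of all genes) and 3 lower (6.25%). The median log2 difference of the 36 was 0.18, which is 0.07 above that of all genes. The groups of proteins overlapped in range and had medians of 0.74 for the cathepsins, -0.25 for the glycosidases, -0.37 for the other soluble proteins and 0.40 for the membrane proteins, and their differences were not tested.

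**Figure D1:**
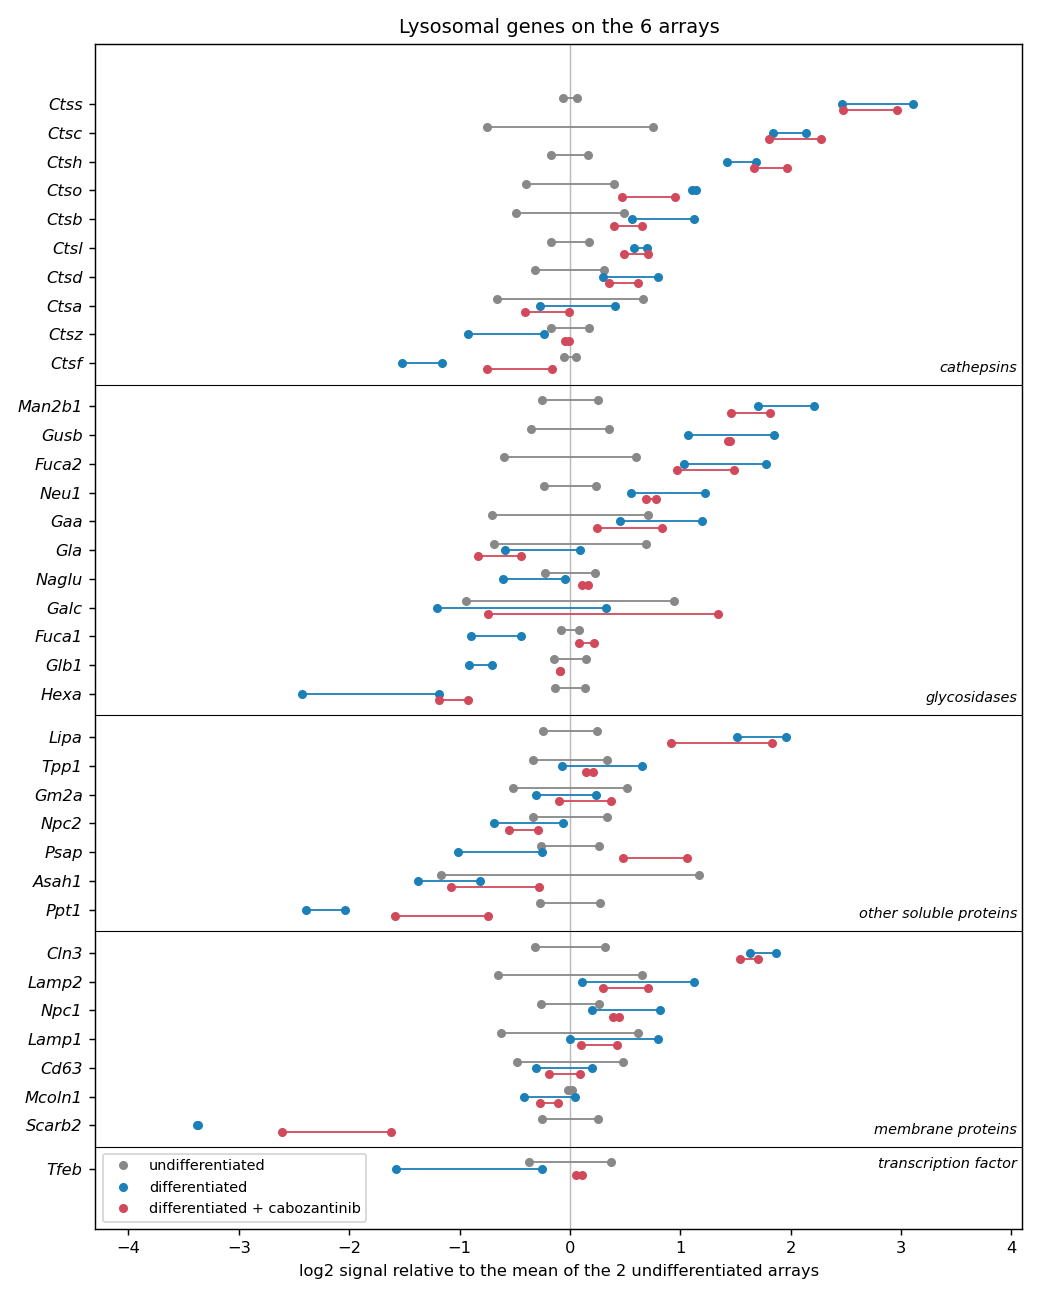
Log2 signal of the 36 lysosomal genes on the 6 arrays, each gene relative to the mean of its 2 undifferentiated arrays (x axis, log2). Each point is 1 array and a line joins the 2 arrays of a group, and genes are ordered within their group by the difference between differentiated and undifferentiated PMOs. Ctss sits farthest to the right, and Scarb2 farthest to the left, in both groups kept in differentiation medium.

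The cathepsins are proteases, most of them of the cysteine type. Ctss, the cysteine protease that trims the invariant chain in antigen-presenting cells, had the largest difference of the group. Its level was 4.94 and 4.81 in undifferentiated PMOs, 7.34 and 7.98 after differentiation and 7.35 and 7.84 with cabozantinib. All 4 arrays kept in differentiation medium were thus well above both undifferentiated arrays, and they overlapped with each other. The difference was 2.79 (SE 0.498, 6.91-fold, adjusted p = 0.0069) for differentiated and 2.72 (SE 0.498, 6.6-fold, adjusted p = 0.00999) for cabozantinib against undifferentiated PMOs. The first call was lost without differentiated replicate 2 (2.56, adjusted p = 0.0696). The second was lost without cabozantinib replicate 1 (2.84, adjusted p = 0.0595) or replicate 2 (2.61, adjusted p = 0.124).

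Ctsh, a cysteine aminopeptidase, and Ctsc, the dipeptidyl peptidase that activates granule serine proteases, were also lowest in undifferentiated PMOs. Ctsh read 4.19 and 3.86 undifferentiated, 5.45 and 5.71 differentiated and 5.69 and 5.99 with cabozantinib. Ctsc read -0.18 and 1.32, then 2.71 and 2.41, then 2.84 and 2.38. For both genes the undifferentiated arrays were the 2 lowest of the 6, and for Ctsc they were also far apart from each other. The 2 genes rose in the cabozantinib group against undifferentiated PMOs, Ctsh by 1.82 (SE 0.494, adjusted p = 0.0403) and Ctsc by 2.04 (SE 0.595, adjusted p = 0.0498). In differentiated PMOs the differences were 1.56 for Ctsh (adjusted p = 0.0837) and 1.99 for Ctsc (adjusted p = 0.0673), which missed the threshold. The call of Ctsh was lost without either cabozantinib array (1.98 and 1.65) and, since the spread is shared, without either differentiated array (adjusted p = 0.0551). That of Ctsc was lost without undifferentiated replicate 1, which left a difference of 1.1, and without cabozantinib replicate 1 (1.5) or replicate 2 (2.57). It was also lost with quantile normalization or the authors' values (1.98, adjusted p = 0.157), normexp (2.12, adjusted p = 0.181) and no filter (adjusted p = 0.108), and that of Ctsh with normexp (adjusted p = 0.184) and no filter (adjusted p = 0.096).

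No other cathepsin passed the test. Ctsf, a cysteine protease, had the lowest difference of the group in differentiated PMOs, with levels of -1.79 and -1.68, then -3.25 and -2.90, then -1.90 and -2.49. Its differentiated arrays were the 2 lowest (log2 difference -1.34, adjusted p = 0.149), and with cabozantinib it had the group's highest difference against differentiated PMOs (0.88, adjusted p = 0.352). Ctso, another cysteine protease, went from -4.04 and -4.84 to -3.30 and -3.34 and then -3.97 and -3.49, and its -0.41 against differentiated PMOs was the group's lowest with cabozantinib (adjusted p = 0.776). The abundantly expressed Ctsb, Ctsl and Ctsd, which degrade proteins in most cells, had differences of 0.84, 0.64 and 0.55 in differentiated PMOs (adjusted p = 0.474, 0.58 and 0.696). For Ctsb the 2 undifferentiated arrays read 7.71 and 6.73, and for Ctsl 6.61 and 6.27. The differences of Ctsz, a carboxypeptidase, and of Ctsa, the serine carboxypeptidase that stabilizes beta-galactosidase and sialidase, were -0.58 and 0.07 (adjusted p = 0.66 and 0.987). A second probe of Ctsa, well above background on every array, read -0.68 and -1.31, then 0.58 and 1.20, then -0.16 and 0.27, and gave 1.88 in differentiated PMOs (adjusted p = 0.0522).

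**Figure D2:**
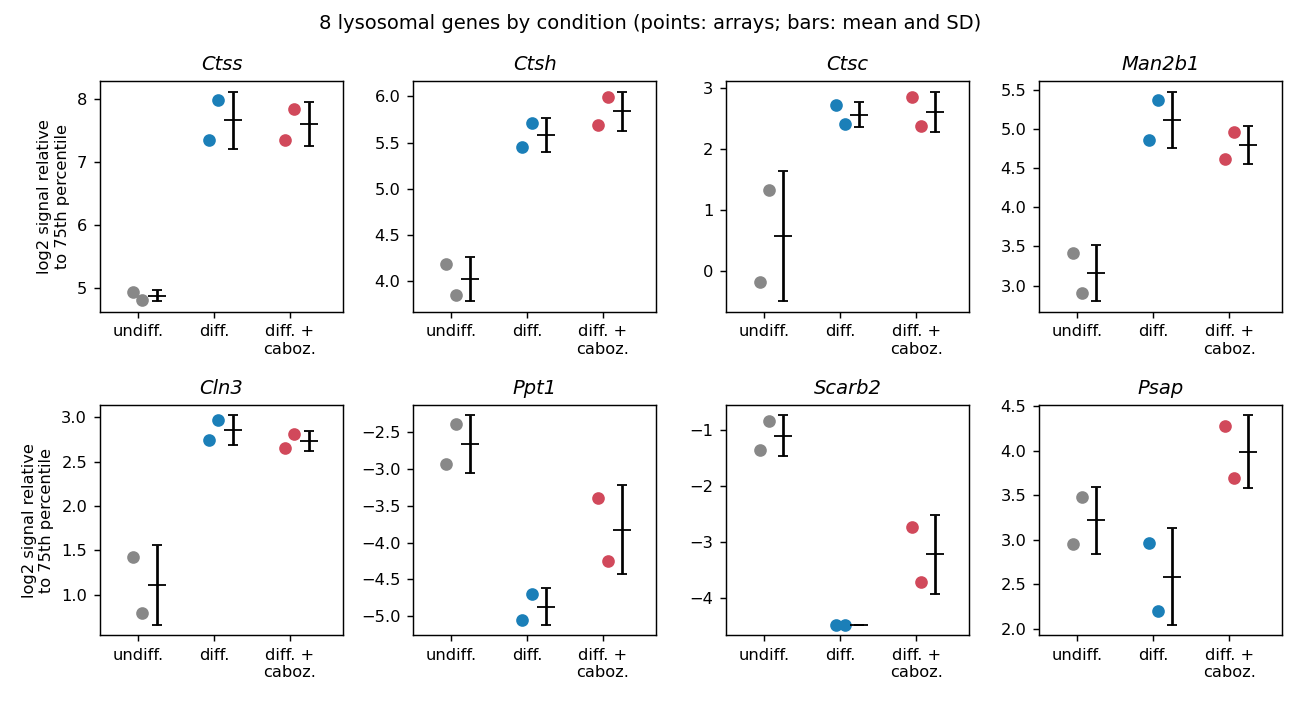
Level of 8 lysosomal genes (y axis, log2 signal relative to the array's 75th percentile, a separate axis for each gene) in undifferentiated, differentiated and cabozantinib-treated differentiated PMOs. Points are single arrays, and the bar beside them is the mean with the SD of 2 arrays. Ctss, Ctsh, Ctsc, Man2b1 and Cln3 lie higher in both groups kept in differentiation medium, and Ppt1 and Scarb2 lie lower, with the cabozantinib arrays between the other groups. Psap lies highest with cabozantinib.

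The glycosidases remove sugars from glycoproteins, glycolipids and glycogen. Man2b1, the lysosomal alpha-mannosidase, read 3.42 and 2.90 undifferentiated, 4.87 and 5.38 differentiated and 4.62 and 4.97 with cabozantinib. Both groups kept in differentiation medium lay above the undifferentiated arrays, and they overlapped. The gene rose by 1.96 in differentiated PMOs (SE 0.512, 3.89-fold, adjusted p = 0.039), and the 1.64 of the cabozantinib group against undifferentiated PMOs missed the threshold (adjusted p = 0.0612). The call in differentiated PMOs held in 9 of 18 alternative settings. It was lost without undifferentiated replicate 2 (1.49), differentiated replicate 1 (2.26) or differentiated replicate 2 (1.67), and without either cabozantinib array (adjusted p = 0.0691), as well as with normexp (adjusted p = 0.109) and no filter (adjusted p = 0.1).

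Hexa, the alpha subunit of beta-hexosaminidase A, had the lowest difference among the glycosidases. It read 0.87 and 0.61, then -1.69 and -0.45, then -0.18 and -0.45, so that all 4 arrays kept in differentiation medium were below the undifferentiated ones. Its difference was -1.81 in differentiated PMOs (SE 0.556, adjusted p = 0.0745). Gusb, the beta-glucuronidase, Fuca2, an alpha-fucosidase, Neu1, the sialidase, and Gaa, which degrades glycogen, had differences of 1.46, 1.40, 0.89 and 0.83 in differentiated PMOs, with adjusted p-values of 0.137, 0.201, 0.399 and 0.563. Gusb read 1.62 and 2.32, then 3.82 and 3.05, then 3.43 and 3.40, and Neu1 read 2.06 and 1.59, then 2.38 and 3.05, then 2.51 and 2.60. For Gusb, Fuca2 and Neu1 the 4 arrays kept in differentiation medium were all above the undifferentiated ones, whereas for Gaa the groups overlapped. The differences of Gla, Naglu, Galc, Fuca1 and Glb1, which act on galactosides, glucosaminides, galactosylceramide, fucosides and beta-galactosides, ran from -0.25 for Gla to -0.81 for Glb1, and none passed the test.

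The other soluble proteins are lipid-handling enzymes, their activators and a peptidase. Ppt1, which removes palmitate from proteins, fell by 2.21 on the log2 scale in differentiated PMOs (SE 0.538, 4.63-fold, adjusted p = 0.0287). Its levels were -2.93 and -2.38 undifferentiated, -5.05 and -4.69 differentiated and -3.40 and -4.25 with cabozantinib. The 3 groups did not overlap, and the cabozantinib arrays were between the others. The difference of the cabozantinib group was 1.05 from differentiated (adjusted p = 0.289) and -1.17 from undifferentiated PMOs (adjusted p = 0.169). The call was lost without undifferentiated replicate 2 (-1.81), differentiated replicate 1 (-1.96) or differentiated replicate 2 (-2.46). With a background correction fitted to the spot medians (normexp) the difference was -1.23, and the call was lost, as it was with quantile normalization (-2.27, adjusted p = 0.0544), the authors' values (adjusted p = 0.0535) and no filter (adjusted p = 0.076).

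Lipa, the acid lipase that frees cholesterol from its esters, read -2.02 and -2.51, then -0.75 and -0.30, then -0.43 and -1.35, so that its undifferentiated arrays were the 2 lowest. The difference of 1.74 in differentiated PMOs missed the threshold (adjusted p = 0.0732). Asah1, the acid ceramidase, had the widest spread of the group on the undifferentiated arrays, at -0.70 and 1.65, and a difference of -1.10 (adjusted p = 0.497). For Tpp1, a tripeptidyl peptidase, Gm2a, the activator of ganglioside breakdown, Npc2, which hands cholesterol to Npc1, and Psap, the precursor of the saposins, the differences in differentiated PMOs were 0.29, -0.04, -0.37 and -0.63. Their adjusted p-values ran from 0.635 for Psap to 0.992 for Gm2a.

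Among the membrane proteins, Scarb2 (LIMP-2), a glycoprotein that also serves as a sorting receptor to lysosomes, had the largest change of all 36 genes. Its level was -1.36 and -0.85 in undifferentiated PMOs, -4.48 on both arrays after differentiation and -2.73 and -3.72 with cabozantinib. The 3 groups did not overlap, with the differentiated arrays lowest. It fell by 3.37 on the log2 scale in differentiated PMOs (SE 0.54, 10.4-fold, adjusted p = 0.00416) and by 2.12 in the cabozantinib group against undifferentiated PMOs (4.34-fold, adjusted p = 0.0325). Without undifferentiated replicate 2 both calls were lost (-2.87 and -1.61). The second was also lost without cabozantinib replicate 1 (-2.74) or replicate 2 (-1.49), and with quantile normalization or the authors' values (-1.71, adjusted p = 0.103), normexp (-1.74) or no filter (adjusted p = 0.0808). With normexp the first was -2.21 and not called.

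Cln3, a membrane protein mutated in a juvenile form of Batten disease, had 3 probes on the array. The brightest read 1.43 and 0.79, then 2.74 and 2.98, then 2.65 and 2.81, and its difference of 1.75 in differentiated PMOs was just over the threshold (adjusted p = 0.0589). A second probe read -3.79 and -4.07, then -1.02 and -1.33, then -1.60 and -1.49, and rose by 2.76 (adjusted p = 0.00648). On both of these probes every array kept in differentiation medium was above the undifferentiated arrays. The third probe stayed between -0.99 and -1.62 on all 6 arrays, with a difference of 0.15 (adjusted p = 0.955).

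None of the other membrane proteins passed the test. In differentiated PMOs the difference was 0.40 for Lamp1 and 0.62 for Lamp2, the main glycoproteins of the membrane, 0.51 for the cholesterol exporter Npc1, -0.05 for the tetraspanin Cd63 and -0.19 for the cation channel Mcoln1. Their adjusted p-values ran from 0.726 for Lamp2 to 0.989 for Cd63. Lamp1 read 7.89 and 6.65 before differentiation, 7.27 and 8.07 after it and 7.37 and 7.70 with cabozantinib, so the undifferentiated arrays enclosed most of the others. Over the alternative settings the difference in differentiated PMOs ran from -0.5 to 1.3 for Lamp1 and from -0.387 to 1.62 for Lamp2, so a 2-fold change was not excluded.

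Tfeb, the transcription factor of the CLEAR network, was at -4.13 and -4.88 undifferentiated, -6.08 and -4.76 differentiated and -4.40 and -4.45 with cabozantinib. Its probe was not well above background on 1 array. The groups overlapped except that both cabozantinib arrays were above both differentiated arrays, and the differences were -0.92, 1.0 and 0.08 in the 3 comparisons, with adjusted p-values of 0.465, 0.367 and 0.95. The 11 genes with CACGTG in a promoter had a median difference of 0.07 in differentiated PMOs (range -1.34 to 1.75), and the 21 with a promoter entry and no CACGTG had one of -0.04 (range -3.37 to 2.79). Of the 6 members whose brightest probe passed the test in any comparison, 5 had a promoter entry, and none of these 5 held CACGTG. By other probes the count differs, since a second probe of Cln3, which holds the motif, was called. Dimmer probes of Ctsd and Gaa, which also hold it, were lower in the cabozantinib group. Those dimmer probes passed the filter through the groups where they were higher, so they are not counted.

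With cabozantinib, none of the 36 lysosomal genes passed the test against differentiated PMOs (limma), beside 0.121% of all genes that were called higher and 2.55% called lower. At an unadjusted p under 0.05, 2 of the 36 were higher (Psap and Scarb2), beside 2.71% of all genes, and 0 were lower, beside 20.7%. In 16 of the 36 the log2 difference was above 0, against 32.2% of all genes. The cabozantinib arrays were both above the differentiated arrays for 10 genes (13.4% of all genes), and both below for 1, Ctso (44.2% of all genes). In each comparison the shares of all genes include dimmer genes. Of the 27196 probes kept, 20291 were well above background on every array, against 35 of the 36 members. Shares among genes of like brightness were not computed, so whether these contrasts are particular to lysosomal genes was not tested. The members' median was -0.03, which is 0.26 above the median of all genes. Quantile normalization turned it to 0.09. Without the replicate number in the fit 0 members were called, beside 0.811% of all genes higher and 11.9% lower.

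**Figure D3:**
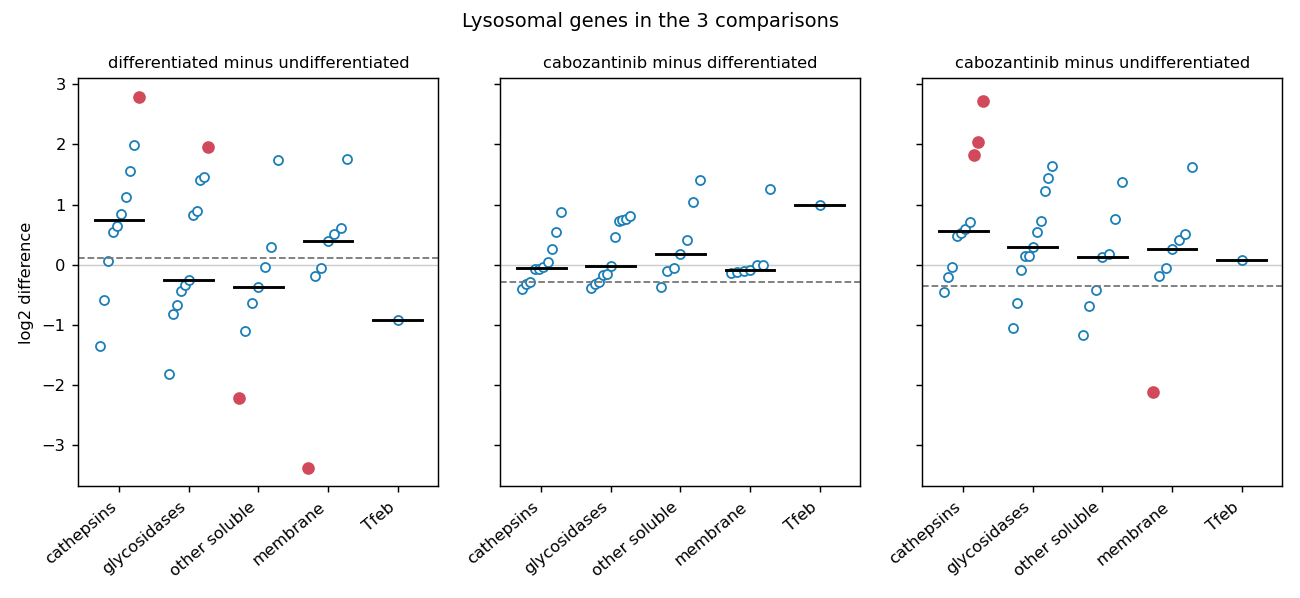
Log2 difference (y axis) of each lysosomal gene in the 3 comparisons, by group of proteins (x axis). Points are genes, filled red where the adjusted p was under 0.05 and open otherwise, the black bar is the group's median, the dashed line is the median of all 23058 genes and the grey line marks 0. In the middle panel no gene is filled, and the points lie between -0.41 and 1.40.

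For 33 of the 36 genes the estimate was below 2-fold in either direction, and the exceptions were Psap, Scarb2 and Ppt1. The half-width of the 95% interval was 1.19 on the log2 scale in the median, from 1.09 to 1.88. The interval stayed within 4-fold in either direction for 29 genes and within 2-fold for 0, so that a change of 2-fold in one direction or the other was not excluded for any of the 36. For Psap and Scarb2 the interval did not include 0, before adjustment over all probes.

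By the brightest probes, Psap had the highest difference of the 36 with cabozantinib. It read 2.95 and 3.48 undifferentiated, 2.97 and 2.20 differentiated and 4.28 and 3.70 with cabozantinib. Both cabozantinib arrays were above the other 4. The difference from differentiated PMOs was 1.40 (SE 0.531, 2.64-fold, unadjusted p = 0.0252, adjusted p = 0.148). In a fit of only these 4 arrays the adjusted p was 0.0316. Scarb2, described above, followed with 1.26 (unadjusted p = 0.0428, adjusted p = 0.197), and Ppt1 with 1.05.

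Among the glycosidases, the brightest probes of Fuca1, Glb1, Hexa and Naglu had both cabozantinib arrays above both differentiated arrays, and a difference below 0 in differentiated PMOs, where the arrays of Naglu overlapped. Glb1 showed this with the least spread, at 0.76 and 0.46, then -0.31 and -0.10, then 0.52 on both cabozantinib arrays, and Fuca1 read 1.92 and 1.75, then 0.94 and 1.39, then 2.05 and 1.92. For these 2 genes the cabozantinib arrays overlapped with the undifferentiated ones. The differences of the 4 from differentiated PMOs were 0.82, 0.72, 0.75 and 0.47 (adjusted p = 0.385, 0.453, 0.507 and 0.712). Both comparisons use the same differentiated arrays, so the 2 directions are not independent. The second probe of Fuca1, well above background on every array, had the opposite signs, 1.48 in differentiated PMOs and -0.37 with cabozantinib (adjusted p = 0.118 and 0.802). The study listed Fuca2 among secreted factors raised over 2-fold by cabozantinib at a p under 0.05. Here its brightest probe gave -0.18 against differentiated PMOs (adjusted p = 0.942). Its second probe, not well above background with cabozantinib, was at least 2.44-fold lower, a value given without a test. Gla had the lowest difference of the group, -0.39 (levels 7.33 and 5.95, then 6.05 and 6.73, then 5.80 and 6.19, which overlapped throughout). The medians of the cathepsins, glycosidases, other soluble proteins and membrane proteins were -0.05, -0.02, 0.17 and -0.09, all above the median of all genes. Quantile normalization turned those of the cathepsins and glycosidases to 0.12 and 0.07 and left the others at 0.20 and just under 0.

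Ctss, Ctsc and Ctsh, the cathepsins that lay highest against undifferentiated PMOs by their brightest probes, had differences of -0.07, 0.05 and 0.26 with cabozantinib. Membrane proteins other than Scarb2 lay between -0.14, for Lamp1, and 0.00, for Cd63. Against undifferentiated PMOs, the cabozantinib group had 3 members called higher (Ctss, Ctsh and Ctsc), beside 4.68% of all genes, and 1 lower (Scarb2), beside 8.7%. At an unadjusted p under 0.05, 7 were higher (8.13% of all genes) and 1 was lower (23.4%). The arrays did not overlap for 14 that were higher (19.8% of all genes) and 5 that were lower (43.6%). Without the replicate number in the fit 6 were called higher (6.77% of all genes) and 1 lower (17.4%). In this comparison 24 of the 36 were above 0 (36.3% of all genes), and the members' median of 0.28 was 0.64 above that of all genes. The medians were 0.56 for the cathepsins, 0.30 for the glycosidases, 0.14 for the other soluble proteins and 0.27 for the membrane proteins.

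For some genes the probes did not lie on the same side. Besides the third probe of Cln3, whose -0.43 in the cabozantinib group against undifferentiated PMOs stood beside 1.62 for the brightest, the brightest probe of Fuca1 had -0.67 in differentiated PMOs (adjusted p = 0.558), against the 1.48 of its second probe. The second probe of Ctsa gave 1.05 in the cabozantinib group against undifferentiated PMOs where the brightest gave -0.21 (adjusted p = 0.202 and 0.859). The second probe of Gm2a, well above background on every array, gave -1.63 in differentiated PMOs and 1.59 with cabozantinib against them (adjusted p = 0.174 and 0.175), where the brightest gave -0.04 and 0.17. The second probes of Ctsd, Gaa and Fuca2 were well above background on 2, 4 and 3 arrays. In the cabozantinib group, where none of these 3 probes was well above background, Ctsd was at least 2.47-fold, Gaa at least 1.67-fold and Fuca2 at least 1.38-fold lower than undifferentiated PMOs. These 3 probes passed the filter through the groups where they were higher, so the values are given without a test. The brightest probes of these 3 genes, well above background on every array, gave 0.48, 0.54 and 1.23 in that comparison.

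Other lysosomal hydrolases, 28 of 29 tested, included 5 that rose in differentiated PMOs and 2 that fell, beside 5.26% and 4.46% of all genes. The same shares stand beside the counts in differentiated PMOs of every list below, and no list was tested as a set. Ctse, an aspartic protease counted among the 5, was at least 24.4-fold higher, since its undifferentiated arrays were not well above background. Its probe passed the filter through the groups where it was higher, so the value is given without a test. Acp5, the tartrate-resistant acid phosphatase of osteoclasts and macrophages, rose by 3.34, Lgmn, an asparaginyl protease, by 2.27, and Manba, a beta-mannosidase, by 1.84 (adjusted p = 0.00488, 0.0175 and 0.0436). Aga, which cleaves sugars from asparagine, fell by 3.78 (adjusted p = 0.0126). With cabozantinib against differentiated PMOs 0 of the 28 were called, with 1 higher and 1 lower at an unadjusted p under 0.05.

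Of the subunits of the V-ATPase, the proton pump that acidifies lysosomes, 21 were tested. In differentiated PMOs Atp6v0d2, the d subunit found in osteoclasts and macrophages, rose by 5.28 (adjusted p = 0.000352). Atp6v1c2 was at least 4.42-fold higher. Its probe also passed the filter through the groups where it was higher, so the value is given without a test. The ubiquitous d subunit Atp6v0d1 fell by 3.29, the accessory subunit Atp6ap1 fell by 4.48 and Atp6v1e1 fell by 1.94 (adjusted p = 0.00565, 0.00577 and 0.0327). The 2 d subunits thus moved in opposite directions in these cultures. With cabozantinib against differentiated PMOs 0 of the 21 were called, with 3 higher and 0 lower at an unadjusted p under 0.05, and the highest was Atp6ap1 at 2.41 (adjusted p = 0.0997). Among 17 other lysosomal membrane proteins none was called in differentiated PMOs, where 2 were higher and 2 lower at an unadjusted p under 0.05, and the chloride-proton exchanger Clcn7 was lower in the cabozantinib group against undifferentiated PMOs (-2.21, adjusted p = 0.03). Of 14 genes of enzyme sorting Sort1, a sorting receptor of the Golgi, rose by 2.08 (adjusted p = 0.0228). With cabozantinib against differentiated PMOs 0 of either list were called, and at an unadjusted p under 0.05 there were 2 lower among the membrane proteins and 1 higher among the sorting genes.

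Of 8 MiT factors and regulators tested, Mitf, the relative of Tfeb that drives lysosomal genes in osteoclasts and macrophages, rose by 2.38 in differentiated PMOs (adjusted p = 0.0127) and read 2.00 and 1.83, then 4.25 and 4.33, then 3.83 and 3.91. On this brightest probe both groups kept in differentiation medium were above the undifferentiated arrays. A dimmer probe of Mitf, well above background on every array, gave 0.22 in differentiated PMOs (adjusted p = 0.934), where the groups overlapped. Fnip2, a partner of folliculin, rose by 2.32, and Mtor, the kinase that keeps TFEB in the cytoplasm, fell by 2.32 (adjusted p = 0.0173 and 0.0206). None of the 8 was called with cabozantinib against differentiated PMOs, where 1 was higher and 1 lower at an unadjusted p under 0.05.

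Of 15 macrophage markers tested, 9 rose in differentiated PMOs and 0 fell, with a median difference of 3.13. Their summed signal, in units of the 75th percentile, was 92.4 to 183 in undifferentiated PMOs, 681 to 908 in differentiated PMOs and 651 to 789 with cabozantinib. For the cathepsins the sums were 313 to 533, 678 to 952 and 655 to 816. These sums, which the brightest probes dominate, were higher for both lists in the 2 groups kept in differentiation medium, which overlapped. Of the 10 cathepsins 1 was called in differentiated PMOs and 2 had differences below 0. Sums of the glycosidases were 115 to 266, 185 to 282 and 163 to 216. For the membrane proteins they were 223 to 421, 306 to 436 and 312 to 369. The other soluble proteins had 32.3 to 33.1, 26 to 27.5 and 33.8 to 38.2. Sums of the adipocyte markers were also higher in differentiation medium, at 5.06 to 5.64, 66.2 to 92.2 and 56.1 to 56.2. Csf1r, the receptor of macrophage colony-stimulating factor and the second brightest of the list, rose by 2.84 (adjusted p = 0.0183), and the brightest, Lyz1, had a difference of 1.25 (adjusted p = 0.266). A dimmer probe of Csf1r, well above background on every array, gave 0.29 in differentiated PMOs (adjusted p = 0.889). Against differentiated PMOs that probe gave -1.50 with cabozantinib (adjusted p = 0.103). Another probe of Csf1r, well above background on 2 arrays, gave -0.17 in differentiated PMOs (adjusted p = 0.9565). Lyz2 had the only difference below 0 among the brightest probes of the list, at -1.28 (adjusted p = 0.547), and its groups overlapped. C1qa was at background on every array. With cabozantinib 0 of the 15 were called against differentiated PMOs (0 at an unadjusted p under 0.05), with a median of -0.09. The part of macrophages in the differences of the lysosomal genes, which went in both directions, was not tested. In RNA from a whole culture, more cells of a type and more RNA per cell cannot be told apart.

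**Figure D4:**
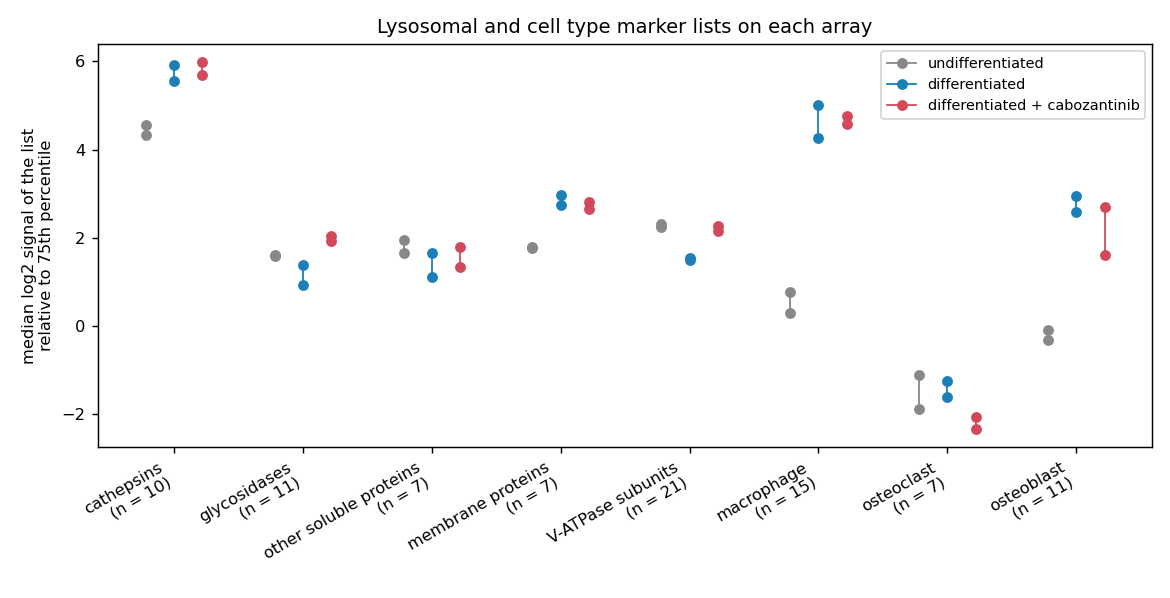
Median level of each list of genes (y axis, log2 signal relative to the array's 75th percentile) on the 6 arrays, with the number of genes in each list on the x axis. Each point is 1 array and a line joins the 2 arrays of a group. The medians of the cathepsins, membrane proteins, macrophage markers and osteoblast markers are higher on all 4 arrays kept in differentiation medium. That of the osteoclast markers lies below 0 on every array.

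Of 11 osteoblast markers tested, 9 to 11 were well above background on each array. Col1a1 and Col1a2, the chains of type I collagen, were the brightest, from 6.72 to 8.23 on the 6 arrays, and 5 of the 11 rose in differentiated PMOs, among them osteocalcin (Bglap2, by 5.06) and Phex (by 6.38), while Spp1 fell by 3.67. Of 7 osteoclast markers only Dcstamp, which macrophages share, was called (2.31), and the calcitonin receptor Calcr was at background on all arrays. Adipocyte markers rose for 5 of 7 genes, chondrocyte markers for 2 of 4 and endothelial markers for 1 of 3, while 2 of 5 neutrophil markers and 1 of 3 muscle markers fell. These counts include Adipoq, Cfd and S100a9, whose probes passed the filter through the groups where they were higher. The endothelial Tek and Tie1, the muscle gene Des and the neutrophil gene Ngp were at background on all arrays. With cabozantinib against differentiated PMOs, 1 adipocyte marker (Cfd) and 1 endothelial marker (Cdh5) fell, and 0 were called in the other lists. The part of these cells in the lysosomal differences was likewise not tested.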

How the data were processed

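RNA of 6 samples was hybridized to single-color Agilent arrays. The deposited intensity values were made by the authors with Feature Extraction 11.0.1.1, which per the file headers subtracted background and corrected trends across the array, without scaling between arrays. The deposited table of the authors' log2 values, nearly equal in distribution on the 6 arrays, was used only as an alternative. Control spots and spots marked as outliers were left out, as were 77 probes with only outlier spots on an array, none of them of a listed gene. Log2 intensities of a probe's spots were averaged and the array's 75th percentile was subtracted. Probes were named through RefSeq accessions, and 27180 of 39429 (69.1%) matched. The 27196 probes well above background on at least 2 arrays were fitted with limma 3.58.1 (R 4.3.3; lmFit, eBayes, 2 residual and 7.7 prior degrees of freedom) over all 6 arrays, with a block for the replicate number because the study's methods name a paired test. P-values were adjusted by Benjamini-Hochberg over all these probes, and a call is an adjusted p under 0.05. Where a probe was not well above background on any array of a group, the fold is a bound against the floor of signals that were. The fit was tested on simulated data. The number of arrays limits the precision.

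Members and gene lists were chosen with earlier results of these data known. A member was described in full where it passed the test, had the highest or lowest difference of its group, was Tfeb, or had probes that disagreed in sign by over 1. Of the other lysosomal lists, genes that passed the test were named, apart from some not reported here, and of the marker lists the 2 brightest and those at background, with others added after their values were seen. Cd68 and Bglap were not matched by accession. Promoters were searched in Python 3.11.15. Alternatives covered scaling, background correction, filter, block, arrays, variance model, probe choice, the methods' t-test and leaving out each array. Quantile normalization, the authors' values and normexp (offset 50) were among them.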

Additional observations from a re-analysis of the deposited data

How the results depend on the processing

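Differentiated against undifferentiated PMOs gave 4 lysosomal genes called. There were 1 with normexp, 2 without a filter, 7 with probes restricted to those above background on every array, 8 with trend and robust variance and 0 by the methods' t-test. That paired test has 1 degree of freedom and was adjusted over all probes here, so its 0 calls, here and below, are not informative. The study's own rule, a p under 0.05 with a change over 2-fold, was not applied. Leaving out 1 array gave 1 to 11, from 1 without differentiated replicate 2 to 11 without undifferentiated replicate 1, and a median of 0.00744 to 0.668. Cabozantinib against differentiated PMOs gave 0, and 1 (Psap) in a fit of only the 4 arrays or without either undifferentiated array, and 0 to 1 over all arrays left out in turn. Its median of -0.03 became 0.0918 with quantile normalization, 0.0924 with the authors' values and 0.0102 with normexp, and ran from -0.15 to 0.28 with 1 array left out, so its sign is not settled. Cabozantinib against undifferentiated PMOs gave 4, and 2 with quantile normalization or the authors' values, 1 with normexp, 1 without a filter, 7 with the probe of the largest change, 0 by the methods' t-test, and 0 to 10 with 1 array left out (0 without either cabozantinib array, 10 without undifferentiated replicate 2), with a median of -0.0178 to 0.676. With the probe of the largest change 2 genes reversed in this comparison, Ctsd at -3.45 and Gaa at -2.30, because a dimmer probe took the place of the brightest. Those dimmer probes passed the filter through the groups where they were higher. Causes of the other changes were not tested.

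Deviations of same-numbered arrays from their group means had r = -0.51 (undifferentiated and differentiated), -0.53 (undifferentiated and cabozantinib) and 0.27 (differentiated and cabozantinib). Each value compares single arrays, so it does not settle whether the replicate numbers pair the samples. Without the replicate block 9 genes were called in differentiated PMOs, 0 with cabozantinib against differentiated and 7 against undifferentiated PMOs. Exchanging the numbers of the undifferentiated arrays, an alternative chosen after seeing the data, gave 14, 2 and 11. Shares of all genes called were computed only for the main fit and the fit without the replicate block, and are given above. Whether the counts under the other alternatives merely follow those of all genes was not tested.

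Of 1941 values of single lysosomal genes under the alternatives, 1703 kept their direction and their side of the threshold, 49 lost a call, 61 gained one and 126 uncalled values changed sign. The call of Ctss in differentiated PMOs held in 16 of 18 alternatives, that of Scarb2 in 15 and that of Ppt1 in 10. The planned normexp correction on mean signals was not run, as the files give medians, so median signals were used instead, a choice made after seeing the files.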
